A study of Mus musculus with 3 samples.

Results

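Semaphorins are secreted or membrane-bound guidance ligands, plexins are their signalling receptors, and neuropilins are co-receptors that most secreted semaphorins need to engage a plexin. They were first described as cues that repel growing axons, and they also pattern blood and lymphatic vessels and modulate immune cells. Plexins act on small GTPases inside the cell, and neuropilins also bind vascular endothelial growth factors. The family was taken from the gene symbols alone: every gene whose symbol is Sema followed by a class number and letter, every plexin of classes A to D, and both neuropilins. This gave 31 of the 33696 genes in the files, namely 20 semaphorins, 9 plexins and 2 neuropilins.

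Back skin was wax-depilated, pooled over mice and dissociated with collagenase, and all mice were C57BL/6 females aged 9 weeks. The CIA+VFX library came from mice of a chemotherapy-induced alopecia model given venlafaxine, a serotonin and noradrenaline reuptake inhibitor. The CIA library came from the same model without venlafaxine, and the Cont library from vehicle-treated mice. The chemotherapy agent, the doses, the day of sampling and the number of pooled mice are not given in the sources used here. Each group was 1 pooled library, so no difference below has a replicate check or a test, and intervals (95%, exact) cover counting error only.

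The kept cells numbered 15372 in CIA+VFX, 15401 in CIA and 11904 in Cont, with 130557879 to 155210692 unique molecular identifiers (UMIs) per deposited library and a median of 4923 to 5950 UMIs per barcode. Pairs of libraries shared 75 to 110 barcodes, at most 0.622% of the smaller library. Marker genes assigned 32582 cells to 23 cell types, and the 17 types with at least 50 such cells in every library were compared. The marker lists had 187 entries, some genes being listed for more than 1 type. For 157 entries the level in the own type was, in every library, above that of any other type with its libraries pooled. The assignment itself favours this. Among the other 30 were 4 outer root sheath and bulge, 4 monocyte and 2 dermal papilla markers. Levels are given as counts per 1000000 UMIs (CPM), summed over the cells of a type in a library. They come from 3′ ends, so they are compared between cell types and libraries and not between genes.

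Among the 31 genes, 13 had their highest mean level in endothelial cells, 7 of them in vascular and 6 in lymphatic endothelium. Matrix and hair shaft cells were highest for 5 genes, fibroblasts and natural killer cells for 3 each, and pericyte and smooth muscle cells for 2. One natural killer gene, Plxnb3, rests on 2 UMIs there. Sema5b rests on 42 UMIs in lymphatic endothelium and Plxna3 on 31 in matrix and hair shaft cells. Among the endothelial genes, Sema5b and Sema3f were only 1.04 times and Plxna2 1.07 times the next type. The same count was not made over all genes, so these counts are not read as a trait of the family. The highest type was the same in all 3 libraries for 19 genes, and for 18 genes the 3 levels in that type were all above the 3 levels in the next type. Most genes were shared between several types, since the mean level in the highest type was a median of 1.37 times that in the next, with a range from 1.02 to 8.69.

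**Figure D1:**
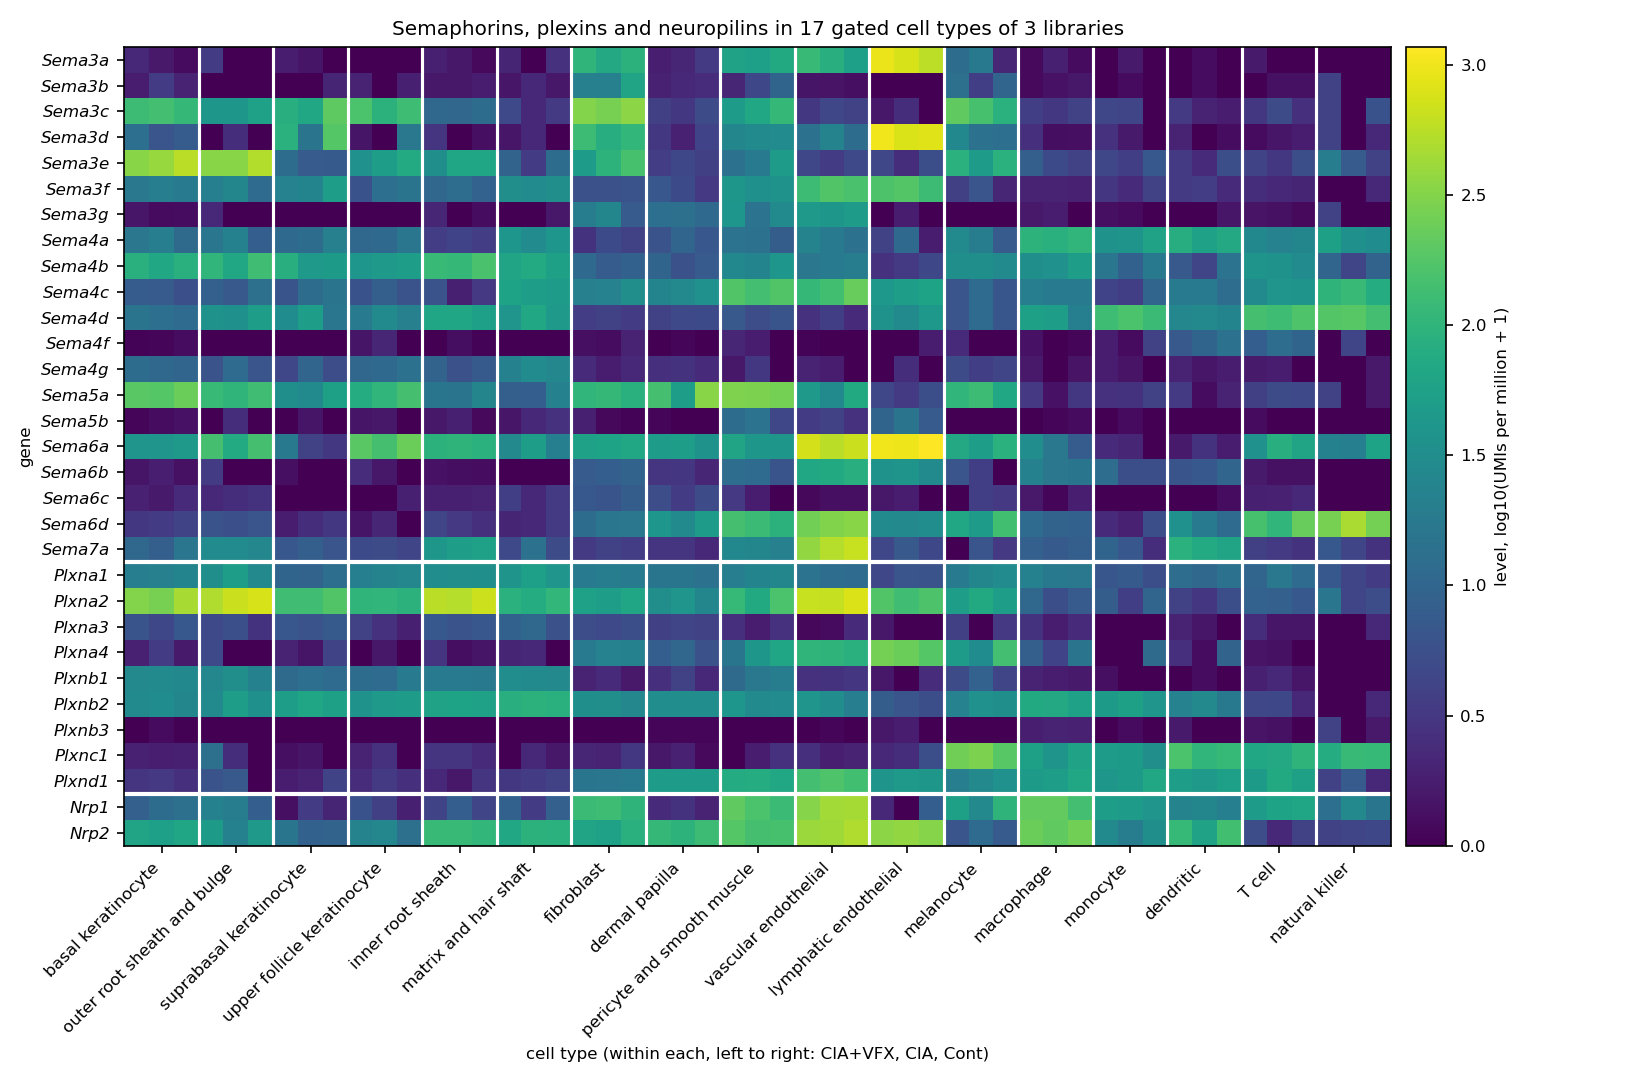
Level of each of the 31 genes (rows) in 17 cell types (column blocks), as log10 of CPM plus 1, with the CIA+VFX, CIA and Cont libraries side by side in each block. Lymphatic endothelium is the brightest block for Sema3a, Sema3d and Sema6a, and Plxnb3 is dark throughout.

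Class 3 semaphorins are the secreted members. Sema3a, which repels axons through neuropilin-1 and class A plexins, had 949, 771 and 578 CPM in lymphatic endothelium of CIA+VFX, CIA and Cont. In the next type, fibroblasts, Sema3a was at 101 CPM in CIA+VFX, 71.1 in CIA and 92.2 in Cont, so the 2 types were apart in every library. Sema3d, another secreted guidance cue, had the same pair of leading types: 1017, 785 and 825 CPM in lymphatic endothelium of CIA+VFX, CIA and Cont, and 125, 81.6 and 107 CPM in fibroblasts. Their mean level in lymphatic endothelium was 8.69 times that in fibroblasts for Sema3a and 8.39 times for Sema3d, the 2 widest margins of the family. Lymphatic endothelial cells held 29.4% of the Sema3a UMIs and 30.6% of the Sema3d UMIs of all kept cells. Sema3a was under 5 CPM on average in 12 of the 17 types and Sema3d in 9.

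Sema3d and Sema3a are next to each other on chromosome 5, with no protein-coding gene between them in RefSeq's GRCm38.p6 annotation. Sema3e follows after 3 further coding genes and Sema3c after 15 more. The last pair had other leading types. Sema3e, a ligand that binds plexin-D1 without a neuropilin, was highest in basal keratinocytes, and Sema3c, a ligand of both neuropilins, in fibroblasts. The promoters of the first 3 are shown because neighbouring genes with the same and with different leading types can then be read side by side. They are the 250 bases before each RefSeq start (GRCm38.p6, plus strand, 5′ to 3′), with matches on either strand to the ETS-type motif CCGGAA, the GC box GGGCGG and the TATA box TATAAA in capitals.

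Sema3d, chr5:12382916-12383165: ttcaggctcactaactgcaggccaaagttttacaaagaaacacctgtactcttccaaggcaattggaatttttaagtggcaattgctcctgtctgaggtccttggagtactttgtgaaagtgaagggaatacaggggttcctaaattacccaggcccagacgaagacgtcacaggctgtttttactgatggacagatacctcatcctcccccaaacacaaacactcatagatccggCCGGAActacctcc
Sema3a, chr5:13396534-13396783: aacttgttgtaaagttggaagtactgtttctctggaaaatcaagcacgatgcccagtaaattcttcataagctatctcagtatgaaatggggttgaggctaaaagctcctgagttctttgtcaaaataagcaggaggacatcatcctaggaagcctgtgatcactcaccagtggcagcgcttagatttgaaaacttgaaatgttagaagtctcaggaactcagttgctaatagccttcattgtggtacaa
Sema3e, chr5:14025026-14025275: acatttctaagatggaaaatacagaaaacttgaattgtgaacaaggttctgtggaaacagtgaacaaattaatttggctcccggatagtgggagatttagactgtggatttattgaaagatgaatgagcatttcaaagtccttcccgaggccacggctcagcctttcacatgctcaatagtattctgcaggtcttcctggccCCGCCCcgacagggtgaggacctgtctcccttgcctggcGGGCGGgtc

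The Sema3d window held 1 ETS-type match, the Sema3e window 2 GC boxes, and the Sema3a window neither. The ETS-type motif occurs in 12% of all 32851 windows of that length in the table and in 4 of the 37 windows of the family (10.8%). GC boxes were in 27 of those 37 windows (73%), against 32.7% of all windows, and no family window held the TATA box, against 12.4%. RefSeq gave a window for 26 of the 31 genes, some with several starts. A match is only a match of letters and shows no bound factor.

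Sema3e had 334, 397 and 559 CPM in basal keratinocytes of CIA+VFX, CIA and Cont, and 335, 334 and 523 CPM in outer root sheath and bulge cells. These 2 types could not be ordered, and in both the Cont level was the highest. In fibroblasts Sema3e was at 47.9 CPM in CIA+VFX, 94.3 in CIA and 151 in Cont, and no 2 of these intervals overlapped. The log2 ratio was -0.98 for CIA+VFX over CIA (-1.12 to -0.84) and -1.65 for CIA+VFX over Cont (-1.79 to -1.52). Most of the UMIs came from 1 fibroblast cluster, cluster 40, where Sema3e was at 318, 454 and 660 CPM in CIA+VFX, CIA and Cont. That cluster held 10.4% of the fibroblasts in CIA+VFX, 16.7% in CIA and 17.3% in Cont, so the level within it and its share were both lowest in CIA+VFX. Clusters 21 and 28 had log2 ratios above 0 for CIA+VFX over Cont (0.76 and 0.27). Both intervals included no change (-0.26 to 1.90 and -0.09 to 0.63). In inner root sheath cells Sema3e was at 32.5 CPM in CIA+VFX and 64.6 in CIA, beside 64.4 in Cont, though the CIA+VFX over CIA ratio of -0.99 shrank to -0.34 when cells were classed by cluster.

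Sema3c had 315, 278 and 339 CPM in fibroblasts of CIA+VFX, CIA and Cont, a narrow span. Melanocytes came next at 210 CPM in CIA+VFX, 149 in CIA and 89.1 in Cont. There the log2 ratio to Cont was 1.24 for CIA+VFX (0.84 to 1.65) and 0.74 for CIA (0.21 to 1.25). The second of these rests on 55 UMIs in CIA and 80 in Cont and was 0.03 as a mean over cells. The CIA+VFX ratio ranged from 0.64 to 1.92 over the alternative settings. A single melanocyte held 24.3% of the Sema3c UMIs in CIA+VFX, 20% in CIA and 18.8% in Cont.

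Sema3b, a secreted semaphorin known as a candidate tumour suppressor, was mostly a fibroblast gene, with 73.7% of its UMIs in all kept cells there. Fibroblasts had 20.9, 20.6 and 61.3 CPM in CIA+VFX, CIA and Cont, so both model libraries were about equally low. The log2 ratio to Cont was -1.56 for CIA+VFX (-1.76 to -1.35) and -1.57 for CIA (-1.75 to -1.39). Cluster 28, which held 608 of the 777 Cont UMIs, made up 15.3% of fibroblasts in CIA+VFX, 12.7% in CIA and 37.3% in Cont. Within it Sema3b was at 59.8, 41.3 and 133 CPM in CIA+VFX, CIA and Cont, so both its share and its level were highest in Cont. Cluster 21 had a log2 ratio above 0 for CIA+VFX over Cont (0.62, -0.30 to 1.62). For CIA over Cont clusters 21 (0.31, -0.60 to 1.30) and 40 (0.23, -0.19 to 0.65) did so. All of these intervals included no change.

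Sema3g, a vessel-associated ligand of neuropilin-2, was highest in vascular endothelium, at 44.7, 41.2 and 47.1 CPM in CIA+VFX, CIA and Cont. In fibroblasts it was low but differed, with 18.9 CPM in CIA+VFX, 24.7 in CIA and 6.71 in Cont. The log2 ratio to Cont was 1.49 for CIA+VFX (1.13 to 1.87) and 1.88 for CIA (1.54 to 2.23). The 2 clusters with enough UMIs, 21 and 34, had the same direction, with ratios of 0.51 and 0.76 for CIA+VFX and of 1.07 and 1.33 for CIA. In cluster 21 the interval for CIA+VFX included no change (-0.06 to 1.10). These 2 clusters made up 22.5% and 11.6% of fibroblasts in CIA+VFX, 21.4% and 9.45% in CIA, and 9.28% and 6.74% in Cont. Sema3f, the neuropilin-2 ligand, was shared by lymphatic endothelium (161, 178 and 125 CPM in CIA+VFX, CIA and Cont) and vascular endothelium (126, 170 and 152 CPM), and these could not be ordered.

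Sema3a also reached vascular endothelial cells, at 116 CPM in CIA+VFX, 85.7 in CIA and 52.9 in Cont. The order was the same as in lymphatic endothelium, where CIA+VFX over Cont had a log2 ratio of 0.72 (0.59 to 0.84). In vascular cells the ratio to Cont was 1.13 for CIA+VFX (0.89 to 1.38) and 0.70 for CIA (0.44 to 0.96). Only 17 of the 234 Cont vascular cells had a Sema3a UMI, and 1 of them held 25.8% of its UMIs. In the larger vascular cluster, cluster 10, Sema3a was at 123, 77.2 and 28.2 CPM in CIA+VFX, CIA and Cont. In cluster 35 it was at 82.9 CPM in CIA+VFX, 34.0 in CIA and 52.4 in Cont, so CIA was there lower than Cont. Vascular Sema3d rested on cells of the lymphatic cluster: its level was 13.4 CPM in CIA+VFX, 22.7 in CIA and 11.3 in Cont, and 145 of 159 UMIs in CIA+VFX and 169 of 196 in CIA came from 21 and 26 cells that clustered with lymphatic endothelium. All 6 lymphatic markers were detected in the vascular cells, with summed levels of 82.3 CPM in CIA+VFX, 163 in CIA and 76.5 in Cont. Their part in the Sema3a difference was not tested.

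**Figure D2:**
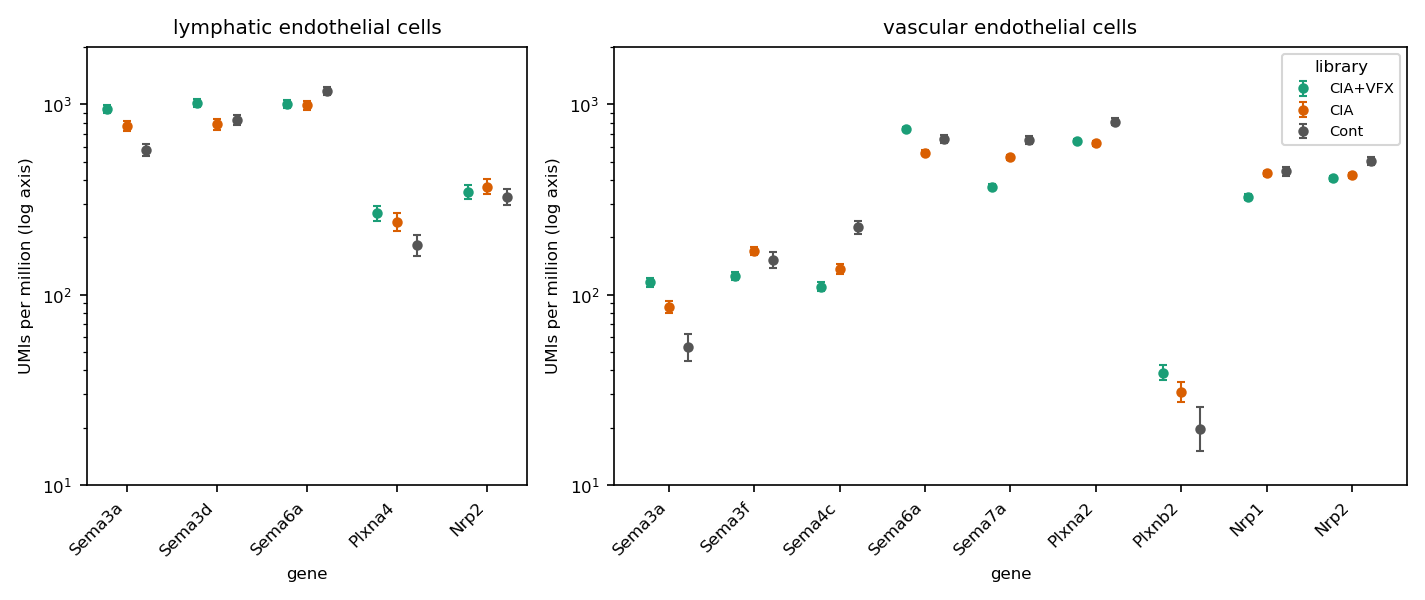
Levels of selected genes in lymphatic (left) and vascular (right) endothelial cells on a log axis of CPM, 1 point per library (CIA+VFX, CIA, Cont) with exact 95% Poisson intervals. Sema3a is highest in CIA+VFX and lowest in Cont in both types, while Sema4c and Sema7a in vascular cells have the opposite order.

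In suprabasal keratinocytes Sema3d had 90.2, 14.1 and 178 CPM in CIA+VFX, CIA and Cont, from 260, 28 and 166 UMIs. The log2 ratio of -3.67 for CIA over Cont (-4.30 to -3.08) and that of 2.68 for CIA+VFX over CIA (2.12 to 3.30) were the largest in size among the named differences of each comparison. Under the alternatives that could change them, the values nearest to 0 were -2.74 for CIA over Cont and 1.92 for CIA+VFX over CIA. UMIs were spread over 72 of 195 cells in CIA+VFX, 15 of 127 in CIA and 30 of 65 in Cont. Sema3c had 86.0, 68.3 and 203 CPM in these cells of CIA+VFX, CIA and Cont, but 1 Cont cell held 28% of the Cont UMIs, and the CIA over Cont ratio of -1.57 was -0.72 as a mean over cells. Among all genes of these cells the median log2 ratio was -0.16 for CIA over Cont, and 24.6% of genes were at least 1.5-fold lower, the highest such share of the 17 types. Markers of the type itself also differed between libraries. Lor was at 23.9, 3.01 and 69.9 CPM in CIA+VFX, CIA and Cont, the same order as Sema3d. Krt1 had the reverse order, at 6834, 9511 and 1902 CPM. Summed inner root sheath markers stood at 2150 CPM in CIA+VFX, 2892 in CIA and 1065 in Cont. The part of these markers and of the mix within this type was not tested.

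Class 4 semaphorins span the membrane. Sema4a, which binds class B and D plexins and costimulates T cells, was highest in macrophages at 95.2, 87.0 and 103 CPM in CIA+VFX, CIA and Cont, above dendritic cells at 80.6, 56.4 and 70.9 CPM. Sema4d, a plexin-B1 and CD72 ligand on lymphocytes, had 177, 183 and 142 CPM in natural killer cells of CIA+VFX, CIA and Cont and 146, 130 and 165 CPM in T cells, with no order between these types. In suprabasal keratinocytes Sema4d was at 30.2 CPM in CIA+VFX, 50.7 in CIA and 15.1 in Cont, where the last value rests on 14 UMIs in 9 cells. Sema4b was highest in the inner root sheath, at 117, 108 and 155 CPM in CIA+VFX, CIA and Cont. In suprabasal keratinocytes it was higher in CIA+VFX (84.6 CPM) than in CIA (44.7) and Cont (46.2), with a log2 ratio of 0.92 to CIA (0.57 to 1.29). The ratio to Cont was 0.87, but -0.12 in cells thinned to 2000 UMIs.

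Sema4c, a plexin-B2 ligand, was found at similar levels in pericyte and smooth muscle cells and in vascular endothelium. The first type had 173, 140 and 172 CPM in CIA+VFX, CIA and Cont, and vascular endothelium 110, 137 and 226 CPM. In vascular cells the CIA+VFX over Cont ratio was -1.04 on the log2 scale (-1.18 to -0.90). The direction was the same in both vascular clusters, at 89.7 CPM in CIA+VFX against 209 in Cont in cluster 10 and 148 against 255 in cluster 35. Its receptor Plxnb2 had the opposite order in the same cells, with 39.0, 30.9 and 19.8 CPM in CIA+VFX, CIA and Cont and a CIA+VFX over Cont ratio of 0.98 (0.58 to 1.40), lowered to 0.29 in cells thinned to 2000 UMIs. Median depth of the vascular cells was 7932 UMIs in CIA+VFX, 6851 in CIA and 10910 in Cont.

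Class 5 semaphorins carry thrombospondin repeats. Sema5a was found in pericyte and smooth muscle cells at 297, 290 and 267 CPM in CIA+VFX, CIA and Cont, and these intervals overlapped. Dermal papilla cells, the signalling cells at the follicle base, had 143 CPM in CIA+VFX (136 to 152), 51.7 in CIA (46.8 to 57.0) and 331 in Cont (320 to 343). The 3 libraries were thus far apart in the dermal papilla, with CIA lowest and CIA+VFX between. The log2 ratio was 1.47 for CIA+VFX over CIA (1.31 to 1.64), -2.68 for CIA over Cont (-2.83 to -2.53) and -1.21 for CIA+VFX over Cont (-1.30 to -1.11).

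The Sema5a difference was seen in both larger clusters of the dermal papilla. Cluster 7, with most of the cells, was at 139, 44.5 and 323 CPM in CIA+VFX, CIA and Cont, and cluster 13 at 384, 96.8 and 1017 CPM. Cluster 21, with 12 such cells in CIA+VFX, 37 in CIA and 8 in Cont, was too small in 2 libraries to give a value. A Sema5a UMI was found in 50.1% of dermal papilla cells in CIA+VFX, 31.1% in CIA and 73.8% in Cont, and no single cell held more than 4.10% of the UMIs. In T cells, taken as a type without the gene, the share was 1.31% in CIA+VFX, 0.743% in CIA and 1.52% in Cont, at median depths of 4004, 4008 and 4572 UMIs, so the shares in the dermal papilla lay far above the background. Median depth in the dermal papilla was 5748 UMIs in CIA+VFX, 5015 in CIA and 13060 in Cont, but after thinning every cell to 2000 UMIs the shares were 21.9% in CIA+VFX, 9.80% in CIA and 38.3% in Cont. Thinning left out 90 cells of CIA+VFX, 58 of CIA and 42 of Cont. Summed fibroblast markers in the dermal papilla were 3964 CPM in CIA+VFX, 2658 in CIA and 4846 in Cont, the same order as Sema5a. Sema5a in fibroblasts was 105 CPM in CIA+VFX, 109 in CIA and 87.7 in Cont, which is below the dermal papilla level in CIA+VFX and Cont and above it in CIA. The part of fibroblast RNA was not tested. No alternative setting brought the CIA over Cont ratio above -2.66 or the CIA+VFX over CIA ratio below 1.14.

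**Figure D3:**
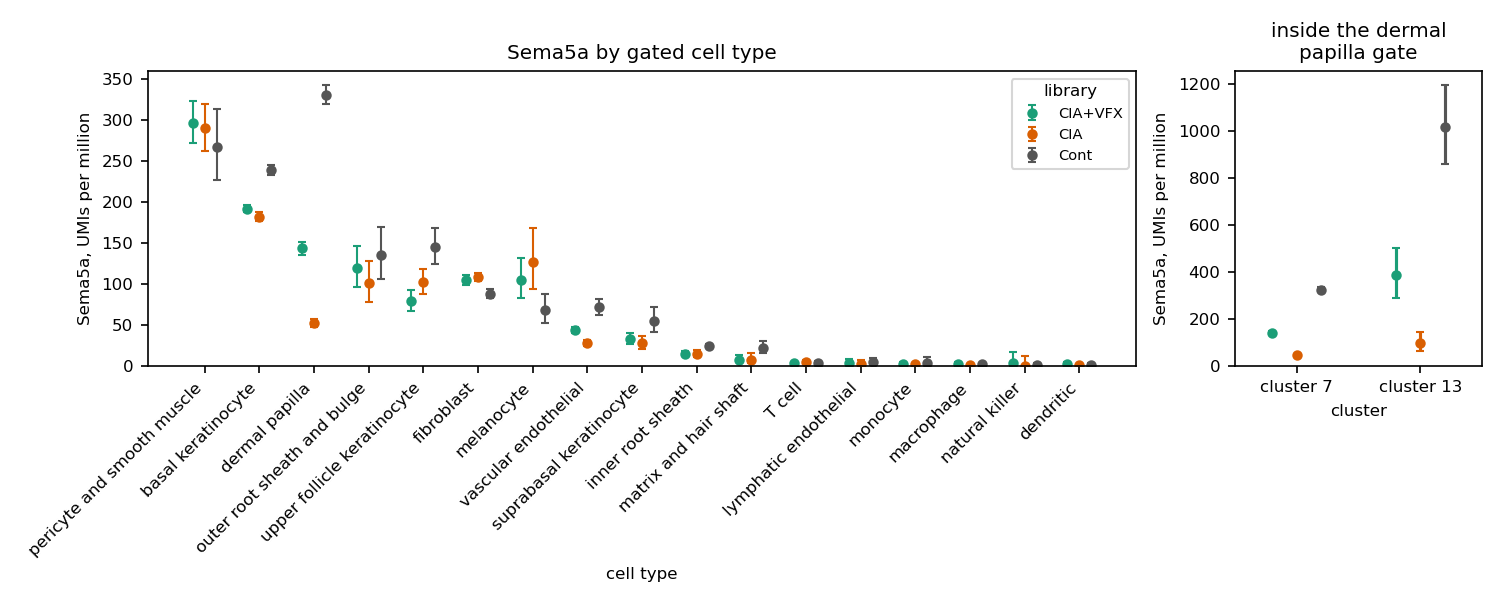
Sema5a level (CPM, exact 95% Poisson intervals) in 17 cell types ordered by mean level (left) and in the 2 larger clusters of the dermal papilla gate (right), 1 point per library (CIA+VFX, CIA, Cont). Levels of pericyte and smooth muscle cells overlap between libraries. Dermal papilla levels are 143 in CIA+VFX, 51.7 in CIA and 331 in Cont and keep that order in both clusters shown.

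The 250 bases before the Sema5a start (RefSeq, GRCm38.p6, plus strand) are shown because of this gene's difference in the dermal papilla. They are 72% G or C and hold 5 GC boxes on either strand, some of them overlapping, in capitals, and neither of the other motifs.

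Sema5a, chr15:32244563-32244812: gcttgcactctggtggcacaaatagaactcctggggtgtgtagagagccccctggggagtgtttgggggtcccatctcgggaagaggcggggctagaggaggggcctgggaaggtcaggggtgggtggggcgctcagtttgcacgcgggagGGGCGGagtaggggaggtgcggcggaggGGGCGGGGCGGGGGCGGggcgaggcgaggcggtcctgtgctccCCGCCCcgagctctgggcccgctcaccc

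In vascular endothelium Sema5a was at 43.0 CPM in CIA+VFX, 27.2 in CIA and 71.4 in Cont. Cluster 35 held 207 of 235 UMIs in CIA and 196 of 209 in Cont, and within it the CIA over Cont ratio was -0.45 rather than -1.39. This cluster made up 18.8% of vascular cells in CIA+VFX, 11.5% in CIA and 25.6% in Cont. Pericyte and smooth muscle markers summed to 1070 CPM in vascular cells of CIA+VFX, 669 in CIA and 1001 in Cont, and their part was not tested.

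Class 6 semaphorins are transmembrane ligands of class A plexins. Sema6a, a ligand of plexin-A2 and plexin-A4, was highest in lymphatic endothelium (1006, 989 and 1171 CPM in CIA+VFX, CIA and Cont) and next in vascular endothelium (743, 558 and 658 CPM). The 2 types did not overlap in any library. In T cells Sema6a was at 34.7 CPM in CIA+VFX, 83.5 in CIA and 60.6 in Cont, with a log2 ratio of -1.27 for CIA+VFX over CIA (-1.54 to -1.01). Nearly all of these UMIs (154 of 160 in CIA+VFX and 454 of 459 in CIA) fell in T cell cluster 25, which held 41.6% of T cells in CIA+VFX, 55% in CIA and 37.7% in Cont. Within that cluster Sema6a was at 93.4, 159 and 159 CPM in CIA+VFX, CIA and Cont.

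Sema6d, a plexin-A1 ligand, was shared by natural killer cells (271, 484 and 267 CPM in CIA+VFX, CIA and Cont) and vascular endothelium (259, 306 and 335 CPM). T cells had 151 CPM in CIA+VFX, 104 in CIA and 227 in Cont, a log2 ratio of -1.13 for CIA over Cont (-1.27 to -0.98). Cluster 19, which holds the natural killer cells, supplied 311 of the 571 T cell UMIs in CIA and 794 of 1260 in Cont. It made up 7.88% of T cells in CIA+VFX, 6.02% in CIA and 12.4% in Cont, and within it the ratio was -0.24. In clusters 20 and 38 the ratio was -0.44 and -0.91. All 7 natural killer markers were detected in T cells, at a summed 354 CPM in CIA+VFX, 296 in CIA and 275 in Cont, and their part was not tested. Dendritic cells had 34.7, 17.1 and 10.7 CPM of Sema6d in CIA+VFX, CIA and Cont, with 79 of 105, 50 of 66 and 14 of 41 UMIs in cluster 1. That cluster held 17.9% of the dendritic cells in CIA+VFX, 8.29% in CIA and 7.96% in Cont. Within it Sema6d was at 156 CPM in CIA+VFX, 170 in CIA and 59.7 in Cont, so CIA+VFX was not higher than CIA there. Sema6b was mainly vascular, with 54.7% of its UMIs there, at 67.2, 71.2 and 83.0 CPM in CIA+VFX, CIA and Cont.

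Sema7a, the membrane-anchored class 7 ligand of plexin-C1 and integrins, had 369, 527 and 649 CPM in vascular endothelium of CIA+VFX, CIA and Cont. Dendritic cells, the next type, had 89.2 CPM in CIA+VFX, 74.0 in CIA and 60.4 in Cont, so vascular cells were 6.91 times higher on average and held 65.3% of the UMIs. The 3 vascular levels did not overlap, and CIA+VFX over Cont had a log2 ratio of -0.81 (-0.89 to -0.74). Both vascular clusters had this direction, at 447 CPM in CIA+VFX against 729 in Cont in cluster 10 and 242 against 544 in cluster 35. The median ratio of all vascular genes was 0.11 in the same comparison, in the other direction. Summed fibroblast markers in the vascular cells were 453 CPM in CIA+VFX, 198 in CIA and 408 in Cont, and their part was not tested.

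Besides Sema3b and Sema3g, Sema4f, Sema4g, Sema5b and Sema6c had a mean of 50 CPM in 0 types. Sema4g was highest in matrix and hair shaft cells at 21.4, 29.1 and 25.5 CPM in CIA+VFX, CIA and Cont. Sema5b had 253 UMIs in all kept cells and reached the minimum of 50 UMIs in 1 cell type.

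Among the plexins, Plxna2, a receptor of class 6 and, with neuropilins, class 3 semaphorins, was the most widespread, with a mean of at least 50 CPM in 11 of 17 types. Vascular endothelium had 644, 623 and 811 CPM in CIA+VFX, CIA and Cont, outer root sheath and bulge cells 505, 673 and 759 CPM, and the inner root sheath 568, 528 and 685 CPM. These types could not be ordered. In basal keratinocytes Plxna2 was at 313 CPM in CIA+VFX, 271 in CIA and 458 in Cont, with a CIA over Cont log2 ratio of -0.76 (-0.80 to -0.71). Of the 10 basal clusters with enough cells, 9 had this direction and cluster 4 had 0.16, but the ratio was -0.47 when cells were classed by cluster. Cluster 0, at 131 CPM in CIA and 322 in Cont, had the largest difference.

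Plxna4, a receptor for Sema3a and Sema6a, was highest in lymphatic endothelium at 268, 242 and 182 CPM in CIA+VFX, CIA and Cont, with vascular cells at 99.6, 98.4 and 88.4 CPM. Lymphatic cells thus led for Plxna4 and for both of these ligands. Macrophages had 7.41 CPM of Plxna4 in CIA+VFX, 3.13 in CIA and 14.2 in Cont. Of the Cont UMIs, 99 of 126 lay in macrophage cluster 33, which held 3.42% of macrophages in CIA+VFX, 3.72% in CIA and 22.7% in Cont, and within it the CIA over Cont ratio was -0.32 rather than -2.18. Melanocytes had 48.3, 29.7 and 139 CPM of Plxna4 in CIA+VFX, CIA and Cont, from 35, 11 and 125 UMIs.

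Plxnd1, the Sema3e receptor of vessels, was highest in vascular endothelium at 139, 165 and 137 CPM in CIA+VFX, CIA and Cont. The next type, pericyte and smooth muscle cells, had 76.7, 78.5 and 67.7 CPM. Plxnc1, the Sema7a receptor, led in melanocytes at 250, 286 and 184 CPM in CIA+VFX, CIA and Cont, followed by dendritic cells at 159, 104 and 112 CPM. In dendritic cells the CIA+VFX over CIA ratio of Plxnc1 was 0.61 (0.41 to 0.80), but in clusters 1 and 29 taken singly it was 0.29 and -0.11. Plxna1, Plxna3, Plxnb1 and Plxnb2 were each highest in matrix and hair shaft cells, and only for Plxnb2 were the levels there (85.0, 93.4 and 88.2 CPM in CIA+VFX, CIA and Cont) all above those of the next type, macrophages (71.3, 69.6 and 55.6 CPM). Plxnb3, known as a receptor of Sema5a, had 20, 32 and 18 UMIs in all kept cells of CIA+VFX, CIA and Cont and was measured in 0 types.

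Both neuropilins were highest in vascular endothelium. Nrp1, the Sema3a and VEGF-A co-receptor, had 326, 434 and 446 CPM there in CIA+VFX, CIA and Cont. Macrophages came next, at 213 CPM in CIA+VFX, 215 in CIA and 140 in Cont. The log2 ratio to Cont in macrophages was 0.61 for CIA+VFX (0.49 to 0.73) and 0.63 for CIA (0.52 to 0.74), and with TMM scaling 0.40 and 0.49. All macrophage genes had a median ratio of 0.22 and 0.14 in these comparisons. Cluster 3, with about the same share of macrophages in each library (61.5% in CIA+VFX, 60.2% in CIA and 62.4% in Cont), had 299, 299.5 and 211 CPM in CIA+VFX, CIA and Cont. Cluster 2, in which 65% of assigned cells were monocytes, had the opposite direction, at 85.4, 105 and 128 CPM in CIA+VFX, CIA and Cont. Its interval for CIA over Cont included no change (-0.67 to 0.12). This cluster held 27.7% of macrophages in CIA+VFX, 28.5% in CIA and 7.68% in Cont. When cells were classed by cluster, the macrophage ratio to Cont was 1.20 for CIA+VFX and 1.20 for CIA. Pericyte and smooth muscle cells had 205, 156 and 122 CPM of Nrp1 in CIA+VFX, CIA and Cont, where 1 of 60 Cont cells held 24.3% of the UMIs. In these cells the marker Rgs5 was at 4078, 3871 and 1896 CPM in CIA+VFX, CIA and Cont, and Myh11 at 4944, 4860 and 7247 CPM. The part of the mix within this type was not tested.

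Nrp2, the Sema3f and VEGF-C co-receptor, had 408, 424 and 503 CPM in vascular and 346, 369 and 325 CPM in lymphatic endothelium of CIA+VFX, CIA and Cont. Lymphatic endothelium had little Nrp1, with 1.17 CPM in CIA+VFX, 0 UMIs in CIA, with an exact upper limit of 2.86 CPM, and 7.38 CPM in Cont. Dendritic cells had 113 CPM of Nrp2 in CIA+VFX, 57.7 in CIA and 139 in Cont. The log2 ratio was 0.97 for CIA+VFX over CIA (0.72 to 1.22) and -1.27 for CIA over Cont (-1.50 to -1.04). Both clusters with enough dendritic cells, 1 and 29, had these directions, with smaller CIA+VFX over CIA ratios of 0.56 and 0.46. Of all assigned cells of cluster 1, 47.4% were dendritic. It held 17.9% of dendritic cells in CIA+VFX, 8.29% in CIA and 7.96% in Cont. Cluster 1, the Nrp2-rich one, was at 365, 248 and 499 CPM in CIA+VFX, CIA and Cont, and cluster 29 at 58.2, 42.2 and 117 CPM. Summed macrophage markers in dendritic cells were 800 CPM in CIA+VFX, 622 in CIA and 875 in Cont, the same order as Nrp2. Cluster 33, in which most assigned cells were macrophages, held 2.12% of dendritic cells in CIA+VFX, 1.38% in CIA and 13.7% in Cont, and the part of macrophage RNA was not tested.

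Melanocytes had several members apart between libraries, on few cells (146 in CIA+VFX, 89 in CIA and 150 in Cont). Plxna4, Sema6d and Nrp1 were lower in both model libraries than in Cont. Sema6d was at 69.1, 48.6 and 137 CPM in CIA+VFX, CIA and Cont, and Nrp1 at 53.9, 27.0 and 99.2 CPM, where CIA had 18 and 10 UMIs. The CIA+VFX over Cont ratio of Nrp1 was -0.88 and shrank to -0.011 in cells thinned to 2000 UMIs, and a UMI was then found in 12.4% of cells in CIA+VFX and 10.2% in Cont. Sema3c and Sema5a were higher in both model libraries, Sema5a at 105 CPM in CIA+VFX, 127 in CIA and 68.0 in Cont. All of these rest on small counts in 1 melanocyte cluster, cluster 31.

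Counted over all types, a pair of gene and cell type was measured if it had at least 50 UMIs in the 2 libraries together. For CIA+VFX over CIA, 28 of 240 measured pairs of the family were at least 1.5-fold higher (11.67%), where 5.25% of all pairs of any gene and type were, and 20 were at least 1.5-fold lower (8.333%), where 4.44% were. For CIA over Cont, 26 of 235 were higher (11.06%), near the 11.7% of all pairs, and 44 were lower (18.72%), above the 8.9% of all pairs. For CIA+VFX over Cont, 25 of 243 were higher (10.29%, all pairs 10.6%) and 40 were lower (16.46%, all pairs 7.04%). The last 2 comparisons share the Cont library. Of the 44 lower pairs of CIA over Cont, semaphorins gave 32, plexins 8 and neuropilins 4. These were 22.07% of 145 measured semaphorin pairs, 11.76% of 68 plexin pairs and 18.18% of 22 neuropilin pairs. At 200 UMIs or more the shares were 7.91% higher and 4.32% lower for CIA+VFX over CIA, against 2.29% and 1.85% of all pairs, and 7.41% and 13.3% for CIA over Cont, against 7.92% and 6.23%. For CIA+VFX over Cont they were 9.63% and 14.8%, against 6.47% and 4.45%. With cells weighted equally, 36 of the 243 pairs of CIA+VFX over Cont were higher and 38 lower. The share of all pairs was not computed under this weighting, so these 2 counts have no background beside them. Pairs share cells and libraries, so these counts describe the 3 libraries and carry no test.

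**Figure D4:**
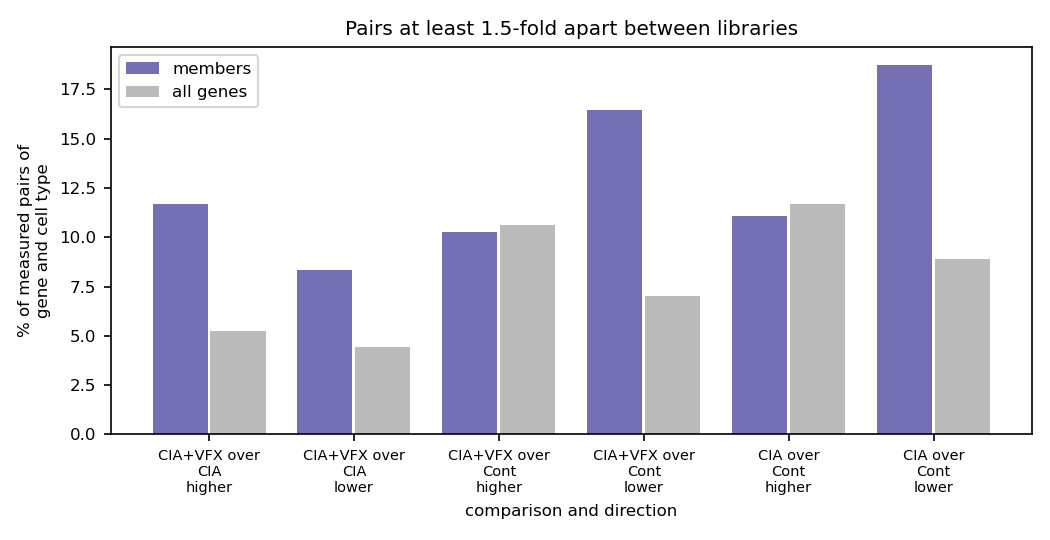
Percent of measured pairs of gene and cell type that were at least 1.5-fold higher or lower in each comparison, for the family (left bar) and for all genes (right bar). The family bars for lower pairs are 8.333% (CIA+VFX over CIA), 16.46% (CIA+VFX over Cont) and 18.72% (CIA over Cont), each above the bar of all genes.

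The differences named here had at least 100 UMIs, at least 1.5-fold, an interval that left out no change, and the same direction when cells were classed by cluster. Their level in the higher library was at least 0.5 times that of all its kept cells. They were 16 for CIA+VFX over CIA, 28 for CIA+VFX over Cont and 28 for CIA over Cont, over 23 genes and 14 cell types. At most the 15 largest per direction and comparison were named. The lower pairs of both comparisons with Cont reached these 15, so further pairs may have met the conditions. No cluster was classed as outer root sheath and bulge or as upper follicle cells, so no pair of these types could be named. Sema4b in outer root sheath and bulge cells, with a CIA over Cont log2 ratio of -1.04 (-1.62 to -0.48), was therefore not named. Within single clusters of the gate, 12 of 16, 24 of 28 and 23 of 28 had the same direction in every cluster with enough cells and UMIs. Many of these pairs had only 1 such cluster, which could hold nearly all cells of the type. For natural killer cells it held 100% in each library, so the direction there could not differ. The direction by cluster was also a condition for naming, so these counts are no separate check.

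**Figure D5:**
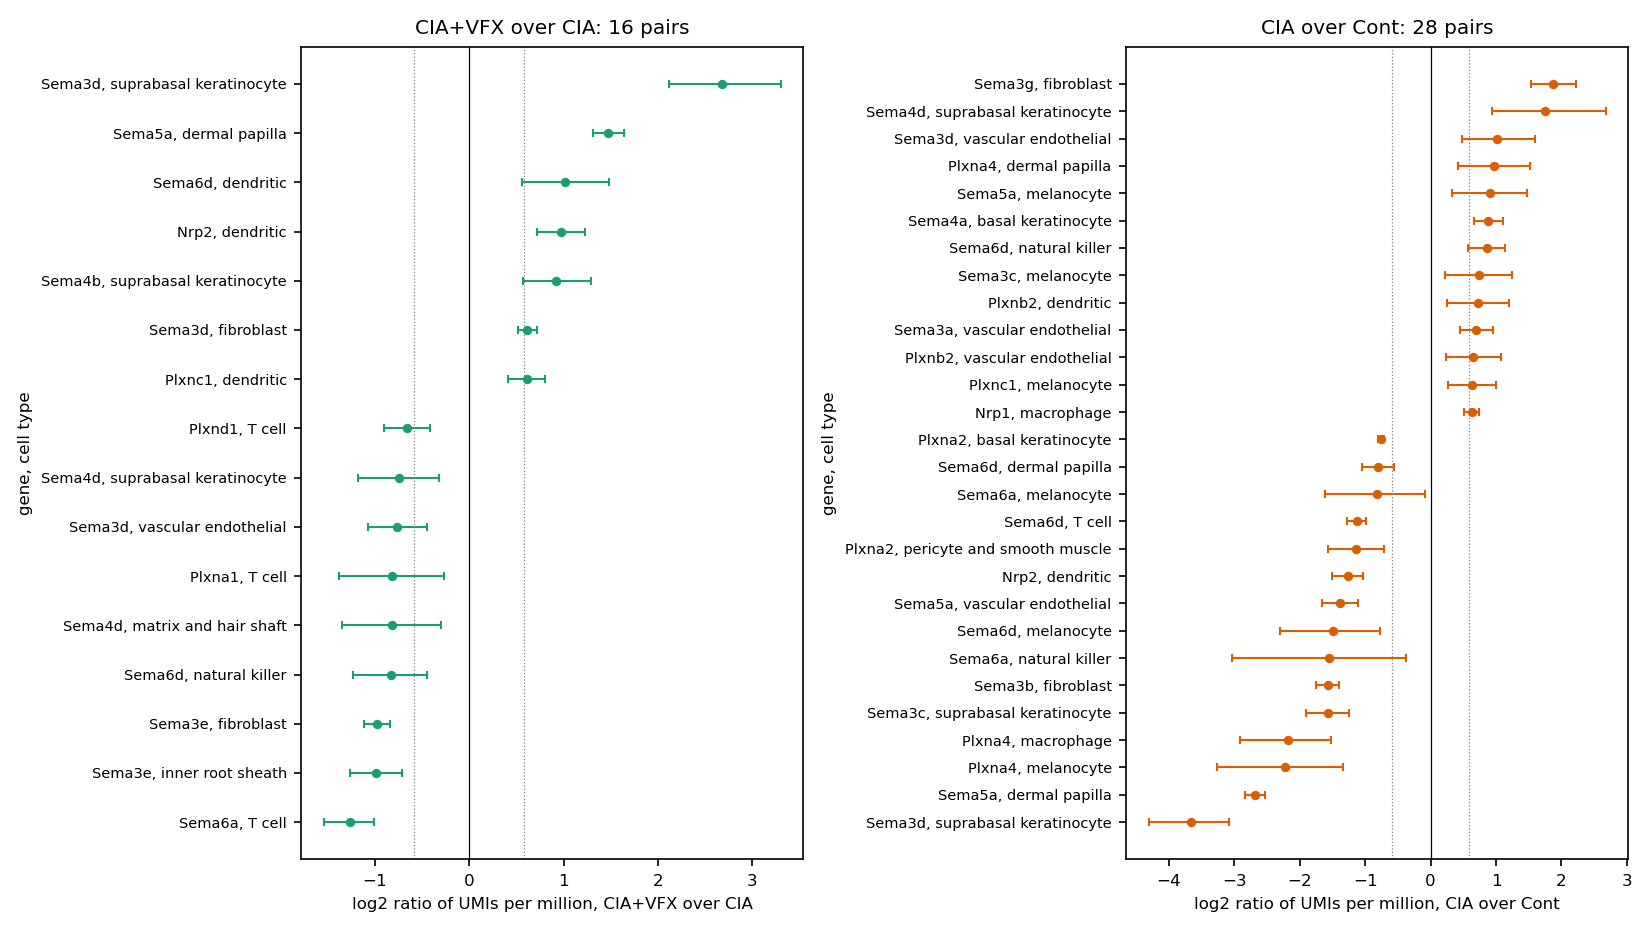
Log2 ratios of CPM with exact 95% intervals for the 16 named pairs of CIA+VFX over CIA (left) and the 28 of CIA over Cont (right), with dotted lines at 1.5-fold. Sema3d in suprabasal keratinocytes and Sema5a in the dermal papilla are at the top on the left (2.68 and 1.47) and at the bottom on the right (-3.67 and -2.68).

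In all kept cells together, where the mix of cell types also counts, 1 of the 31 genes was at least 1.5-fold higher in CIA+VFX than in CIA (all genes 4.47%) and 3 were lower (all genes 7.5%). In CIA+VFX over Cont 7 of 30 were higher (all genes 9.09%) and 3 lower (all genes 6.15%). In CIA over Cont 8 were higher (all genes 12.8%) and 6 lower (all genes 7.23%). The higher ones included Nrp1 (82.0 CPM in CIA and 43.6 in Cont) and Sema3a (32.4 and 18.8 CPM), and the lower ones Plxna2 (176 and 309 CPM) and Sema4b (33.5 and 69.7 CPM). Vascular endothelial cells, the leading type of Nrp1, made up 6.63% of the cells in CIA and 1.97% in Cont, while Nrp1 within them was at 434 CPM in CIA and 446 in Cont. From the level in all kept cells alone, a difference in the share of a type and one in the level within it cannot be told apart.

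A list of 61 partner genes held co-receptors and other ligands, small GTPases with their regulators, and cytoskeletal effectors, and 60 were measured. In CIA over Cont 12 were higher and 2 lower, beside 12.8% and 7.23% of all genes, with 9 of the higher ones among the co-receptors and other ligands. These included the VEGF receptor Flt1 (242 CPM in CIA and 76.4 in Cont) and the neuropilin-1 ligand Pgf (21.2 and 6.22 CPM), both genes of vessels. The larger share of vascular cells in CIA was given above, and its part was not tested. Met, the hepatocyte growth factor receptor that associates with class B plexins, was lower at 71.8 CPM in CIA and 118 in Cont. In CIA+VFX over CIA 0 were higher and 4 lower, near the 7.5% of all genes that were lower: Cd72 (4.50 and 9.11 CPM), Trem2 (6.50 and 13.4 CPM), Tyrobp (221 and 376 CPM) and Crmp1 (1.29 and 2.04 CPM). The first 3 are receptors and an adaptor of B cells and myeloid cells, and macrophages were 5.71% of cells in CIA+VFX and 8.21% in CIA, whose part was not tested. In CIA+VFX over Cont 7 were higher and 0 lower, beside 9.09% and 6.15% of all genes, with Rnd1, a GTPase that binds plexins, apart by the widest margin (104 and 26.4 CPM). The median log2 ratio of the 60 genes was -0.09, 0.11 and 0.01 for CIA+VFX over CIA, CIA over Cont and CIA+VFX over Cont, beside 0.02, 0.04 and 0.04 for all genes.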

How the data were processed

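The authors deposited raw UMI counts per gene and cell barcode (Chromium GEM-X 3′ v4), and the submitters' processing notes name Cell Ranger 8.0.1, GRCm39 and FastQC 0.11.7. Barcodes needed 500 detected genes and no more than 15% of UMIs from mitochondrial genes, and simulated-doublet neighbours were removed at 0.4% per 1000 barcodes. A cell was assigned to a type when at least 3 of its markers had a UMI and its marker score led the next type by at least 0.1; these thresholds were set after the data had been seen, and 3587 assigned cells had exactly 3 markers and 2639 a lead under 0.15. Clusters (42, Leiden, resolution 1.5, 2000 variable genes without the family) were an alternative, and values within clusters were chosen after seeing the data. Counts were summed per library and type. Poisson and conditional binomial intervals were exact (Python 3.11.15). On counts simulated with counting error only, for CIA over Cont in fibroblasts, 95.5% of intervals over 12974 genes held the true ratio. This checks the arithmetic of the intervals and says nothing about spread between cells or mice. Alternatives were TMM and median-of-ratios scaling (edgeR, R 4.3.3), 4 markers, clusters, thinning to 2000 UMIs, a mean over cells, 5% free RNA subtracted, UMI minimums of 10 and 200, no doublet removal and a stricter cell filter. Named pairs had at least 100 UMIs, at least 1.5-fold, an interval without 1, a level of at least 0.5 times that of the whole library and the same direction by cluster, at most 15 per direction and comparison. The members, markers and lists were chosen with earlier results of these data known. Symbols were matched to RefSeq promoters and gene order of GRCm38.p6, whose coordinates are those printed.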

Additional observations from a re-analysis of the deposited data

How the results depend on the processing

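The count of family pairs at least 1.5-fold apart was 48 for CIA+VFX over CIA, 70 for CIA over Cont and 65 for CIA+VFX over Cont. Cells thinned to 2000 UMIs gave 20, 32 and 37, a minimum of 10 UMIs gave 97, 134 and 121, and a minimum of 200 UMIs gave 17, 28 and 33; fewer UMIs or a higher minimum leave fewer pairs measured. The other 8 settings stayed within 1.5 times. The number of genes with the same highest type in every library was 19, and 16 to 21 under the settings that could change it. Among the named ratios, 71 values moved outside the interval of the reported value and 3 reversed; UMI minimums cannot change a ratio, and the direction by cluster was a condition for naming. The reversals were Sema3d in vascular cells for CIA+VFX over CIA to 0.14 when thinned and 0.089 as a mean over cells, and Sema4b in suprabasal cells for CIA+VFX over Cont to -0.12 when thinned. Classing by cluster put 16 of 72 under 1.5-fold, among them Sema6d in natural killer cells (-0.04 for CIA+VFX over CIA and 0.30 for CIA over Cont), Sema4d in matrix cells (-0.12) and in suprabasal cells (-0.11 for CIA+VFX over CIA). A mean over cells put 18 under, thinning 14, and each scaling 7; the cause was not tested. No paired analysis was possible because each group is 1 library. Depth limits the smallest types: 54 to 65 cells in natural killer cells of CIA, and in pericyte and smooth muscle, suprabasal and upper follicle cells of Cont.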

Other observations

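Cell types with fewer than 50 assigned cells in some library were not compared, and their levels are given as values with exact 95% intervals for counting error only. Sema4d, the lymphocyte semaphorin, had 523 CPM in neutrophils of CIA+VFX (449 to 605), 426 in CIA (367 to 492) and 366 in Cont (224 to 565), from 156, 176 and 24 cells. Each value was above its level in every compared type of that library. Schwann cells, the glia of peripheral nerves, had 538 CPM of Sema3d in CIA+VFX (413 to 690), 228 in CIA (163 to 311) and 508 in Cont (301 to 803), from 26, 50 and 6 cells. Sema6a in muscle satellite cells was at 313 CPM in CIA+VFX (229 to 417), 181 in CIA (140 to 230) and 157 in Cont (106 to 224). Plxnb3, scarce in the compared types, had 6 UMIs in Schwann cells of CIA+VFX, 7 in CIA and 0 in Cont.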
